A study of Mus musculus with 4 samples.

Results

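The 8 genes described here encode small leucine-rich and other proteoglycans of the vessel wall: Bgn (biglycan), Fmod (fibromodulin), Omd (osteomodulin), Optc (opticin), Vcan (versican), Prg4 (lubricin), Gpc3 (glypican-3) and Esm1 (endocan). They were chosen by name, with earlier results of these data known. All 8 were among the 17524 gene symbols listed in each of the 4 tables. Thoracic aortas of mice were taken apart into cells and captured in droplets, where a unique molecular identifier (UMI), a short random tag added near the 3′ end, lets every captured transcript be counted a single time. The 4 libraries, each from 3 pooled mice, were KO AngII, WT AngII, KO saline and WT saline. KO mice carried a whole-body knockout of Sting, an adaptor of DNA sensing encoded by Tmem173, and WT mice were wild type. AngII mice were infused with angiotensin II, a hormone that constricts arteries, for 7 days and ate a high fat diet for 5 weeks. Saline mice ate a normal diet, so infusion and diet cannot be told apart. With 1 library per group no test was possible and no difference below has a replicate check.

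Proteoglycans are proteins that carry long sugar chains called glycosaminoglycans, and in arteries they fill the space between cells, bind growth factors and lipoproteins, and set how collagen fibres assemble. The small leucine-rich members bind collagen and growth factors. The large member versican binds hyaluronan. Glypicans sit on the cell surface and carry heparan sulfate. Smooth muscle cells make most of the matrix of the middle layer of the aorta, and fibroblasts make that of the outer layer.

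UMIs of each gene were summed over the cells of a gate, a set of cells chosen by marker UMIs, and divided by all UMIs of the gate to give counts per 1000000 (CPM). The smooth muscle gate (Myh11 of at least 3 UMIs) held 5668 cells in KO AngII, 5906 in WT AngII, with 10372 in KO saline and 7563 in WT saline. The fibroblast gate (Dcn and Lum together at least 10, Myh11 at most 1) held 1880, 1698, 506 and 1021 cells in the same order of libraries. The phagocyte gate (Lyz2, C1qa and C1qb together at least 10, Dcn and Lum together below 10) held 561, 705, 83 and 285 cells. Ranges in brackets after a log2 ratio are exact 95% conditional intervals, and those after a CPM or a share of cells are exact 95% Poisson or Clopper-Pearson intervals. They cover counting error only. A gene was called higher or lower where it had at least 50 UMIs over both libraries and differed at least 2-fold.

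The libraries held 94698727 UMIs in KO AngII, 90581097 in WT AngII, with 76841976 in KO saline and 60064038 in WT saline. AngII cells were deeper, with a median of 9294 and 9938 UMIs against 6071 and 5888 in saline cells. All 12 smooth muscle, all 13 fibroblast and all 13 phagocyte markers were detected in their own gate in every library. Their sums were 41383 to 52811 CPM, 40328 to 54051 CPM and 29903 to 40334 CPM in their own gates. Tmem173 was not depleted in the libraries labelled KO, at 6.10 CPM in KO AngII, 7.03 CPM in WT AngII, 1.33 CPM in KO saline and 1.75 CPM in WT saline. Tags at the 3′ end say nothing of a change elsewhere in the gene, and which stretch was changed is not stated, so KO stands throughout for the libraries labelled KO. Between 92 and 148 cell barcodes were shared by each pair of libraries. RNA crossed gates to a measurable degree: Acta2, a smooth muscle actin, stood in fibroblasts at 5.99% of its smooth muscle CPM in KO AngII, 3.49% in WT AngII, 12.02% in KO saline and, for WT saline, 4.13%. In the phagocyte gate, which has no upper limit on Myh11, it stood at 15.6 to 17.4%.

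The sequences just before the gene start are shown for 3 of the members whose levels differed at least 2-fold with AngII in both genotypes and in both the smooth muscle and the fibroblast gate, Esm1 upward and Omd and Gpc3 downward. Prg4 also differed in this way, upward, but no sequence entry was found for it. The sequences come from RefSeq (GRCm38.p6), run 5′ to 3′ on the strand of the gene, and hold the 250 bases before the annotated start. Capitals mark matches to the GC box, the letters GGGCGG on either strand. The stretch of Esm1 lies at chr13:113209409-113209658 on the plus strand, that of Omd at chr13:49582212-49582461 on the plus strand, and that of Gpc3 at chrX:52613975-52614224 on the minus strand.
Esm1: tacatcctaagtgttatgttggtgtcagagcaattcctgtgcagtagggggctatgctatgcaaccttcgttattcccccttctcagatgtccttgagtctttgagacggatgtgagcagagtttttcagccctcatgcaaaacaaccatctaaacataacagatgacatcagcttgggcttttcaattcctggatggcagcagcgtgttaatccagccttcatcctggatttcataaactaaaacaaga
Omd: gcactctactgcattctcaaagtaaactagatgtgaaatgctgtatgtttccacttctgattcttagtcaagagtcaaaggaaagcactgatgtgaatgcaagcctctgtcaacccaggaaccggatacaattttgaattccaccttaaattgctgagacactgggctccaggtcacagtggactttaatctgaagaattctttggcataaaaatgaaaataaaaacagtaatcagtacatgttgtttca
Gpc3: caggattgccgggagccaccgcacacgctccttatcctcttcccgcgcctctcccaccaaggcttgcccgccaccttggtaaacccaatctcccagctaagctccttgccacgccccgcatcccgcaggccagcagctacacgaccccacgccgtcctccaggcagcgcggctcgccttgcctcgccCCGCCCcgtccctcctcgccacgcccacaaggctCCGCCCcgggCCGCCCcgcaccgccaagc
The Gpc3 stretch had 3 GC boxes and a GC content of 71.6%, against 44.0% for Esm1 and 38.4% for Omd, which had none. RefSeq held an entry for 7 members, all but Prg4. That of Optc was left out because the bases after its start were not found in an annotated transcript. Of the other 6, Bgn and Gpc3 had 3 matches each and Vcan had 2. The GC box was found in 32.9% of 27025 promoter stretches of this length. None of the 6 stretches matched AP-1 (TGANTCA, in 6.87% of all stretches), TEAD (GGAATG, 12.6%), the TATA box (TATAAA, 12.97%), the glucocorticoid response element (0.381%) or the CArG box (1.40%), all searched on both strands. These are letter matches in 1 window and say nothing of factor binding.

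Bgn, a small leucine-rich proteoglycan that binds collagen and transforming growth factor beta, lies on chromosome X (73483602 to 73495933, plus strand, GRCm38). It was detected in nearly every smooth muscle cell of each library. In the smooth muscle gate it reached 6128 CPM in KO AngII, 8484 CPM in WT AngII, 4308 CPM in KO saline and 3673 CPM in WT saline. Both AngII libraries were higher than both saline libraries, and WT AngII was the highest. AngII over saline gave a log2 ratio of 0.51 in KO mice (0.50 to 0.52) and 1.21 in WT mice (1.20 to 1.22), a 1.42-fold and a 2.31-fold difference. In fibroblasts Bgn stood at 6049 CPM in KO AngII, 6587 CPM in WT AngII, 3874 CPM in KO saline and 4104 CPM in WT saline. There the AngII libraries were 1.56-fold (KO) and 1.60-fold (WT) above saline, and the genotypes lay within 1.09-fold of each other at either treatment.

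Bgn in the phagocyte gate was 1067 CPM in KO AngII, 1322 CPM in WT AngII, 990 CPM in KO saline and 603 CPM in WT saline. These levels were 14.7 to 23.0% of the highest gate, close to the 15.6 to 17.4% at which Acta2 stood there. In phagocytes with at most 1 UMI of the markers of the other gates, Bgn was 274 CPM in KO AngII, 241 CPM in WT AngII, 281 CPM in KO saline and 178 CPM in WT saline. The WT AngII over WT saline difference in this gate was 2-fold or more in all phagocytes but not in this single-identity set, where the log2 ratio was 0.44.

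**Figure D1:**
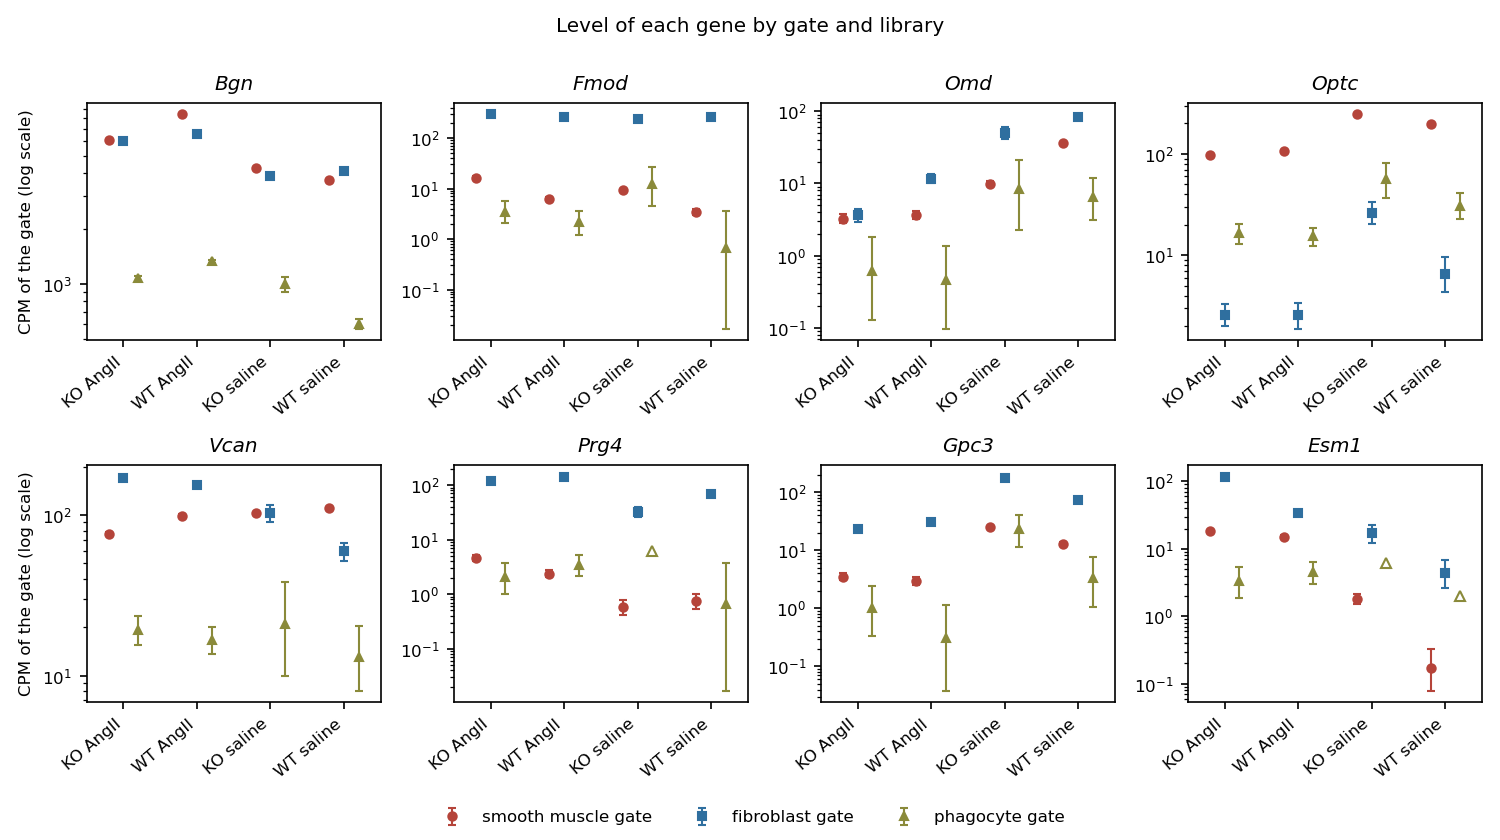
Levels of the 8 genes as CPM on a log axis, in each gate (red circles, smooth muscle; blue squares, fibroblast; olive triangles, phagocyte) and library; bars are 95% Poisson intervals, and an open triangle marks 0 UMIs drawn at the level of 3 UMIs. Optc is highest in the smooth muscle gate of every library, and Fmod, Omd, Prg4, Gpc3 and Esm1 are highest in the fibroblast gate. For Omd in KO AngII the intervals of fibroblasts (2.90 to 4.44 CPM) and smooth muscle (2.80 to 3.73 CPM) overlap. For Esm1 in KO saline both gates stand at 1.62 CPM once the highest cell of each is left out. Fmod in fibroblasts stays between 239 and 299 CPM.

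Fmod, which binds collagen and is abundant in tendon and cartilage, lies on chromosome 1 (134037254 to 134048277, plus strand). In fibroblasts it stood at 299 CPM in KO AngII, 258 CPM in WT AngII, 239 CPM in KO saline and 262 CPM in WT saline. All 4 libraries were alike, within 1.25-fold of each other. For AngII over saline the log2 ratio was 0.32 in KO mice (0.20 to 0.44) and -0.02 in WT mice (-0.12 to 0.07). In cells of at least 5000 UMIs alone, however, these ratios were 1.37 and 1.12. After every cell was thinned to 3000 UMIs, Fmod was detected in 37.9% of KO AngII fibroblasts, 31.6% of WT AngII, 24.9% of KO saline and 24.9% of WT saline. In the smooth muscle gate it was far lower, at 16.4 CPM in KO AngII, 6.26 CPM in WT AngII, 9.23 CPM in KO saline and 3.44 CPM in WT saline. KO libraries were higher there at both treatments, with log2 ratios of 1.39 (1.22 to 1.56) under AngII and 1.43 (1.19 to 1.67) under saline.

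The smooth muscle values of Fmod stood at 5.48%, 2.43%, 3.86% and 1.31% of its fibroblast level in KO AngII, WT AngII, KO saline and WT saline. Beside them, the fibroblast genes Dcn and Lum, which are also small leucine-rich proteoglycans, stood in the smooth muscle gate at 3.77% and 4.92% of their fibroblast CPM in KO AngII, 2.63% and 3.56% in WT AngII, 1.99% and 3.46% in KO saline and 1.22% and 1.70% in WT saline. One cell held 138 of the 982 Fmod UMIs of the KO AngII smooth muscle gate, and the level without it was 14.1 CPM. Their part in the Fmod difference was not tested. With gates applied after thinning, the log2 ratio of KO AngII over WT AngII was 0.10, and with cells of a single marker identity it was 0.90. For KO saline over WT saline it was 0.78 with stricter gates and 0.53 in cells of at least 5000 UMIs.

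Fmod was unevenly spread over fibroblasts. Among thinned fibroblasts with a Vcan UMI, Fmod was detected in 194 of 617 cells (31.4%) in KO AngII, 95 of 434 (21.9%) in WT AngII, 3 of 81 (3.70%) in KO saline and 9 of 113 (7.96%) in WT saline. Among those without Vcan it was detected in 41.1%, 34.9%, 31.7% and 28.3%. Fmod was thus less frequent beside Vcan in each library, and the gap in share was largest in the saline libraries. Comp, a cartilage matrix gene, went the other way: Fmod was in 53.1%, 44.9%, 54.2% and 51.7% of cells with a Comp UMI and in 34.4%, 25.7%, 22.7% and 23.7% of cells without. Cells of 1 library are not replicates, and these shares are a description.

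Omd, a keratan sulfate carrier first known from bone, lies on chromosome 13 (49582462 to 49592822, plus strand). Its smooth muscle level was 3.24 CPM in KO AngII, 3.69 CPM in WT AngII, 9.97 CPM in KO saline and 36.4 CPM in WT saline. WT saline stood apart, and both AngII libraries were low. As log2 ratios, AngII over saline was -1.62 in KO mice (-1.86 to -1.39) and -3.30 in WT mice (-3.50 to -3.11), and that of KO saline over WT saline was -1.87 (-1.996 to -1.74). In fibroblasts Omd was at 3.61 CPM in KO AngII, 11.6 CPM in WT AngII, 50.1 CPM in KO saline and 83.6 CPM in WT saline. The order of the 4 libraries was the same in both gates, but the step between KO AngII and WT AngII in smooth muscle was within counting error, at -0.19 (-0.47 to 0.09). In fibroblasts the log2 ratio was -3.79 (-4.20 to -3.39) for AngII over saline in KO mice, -2.85 (-3.10 to -2.59) in WT mice and -1.69 (-2.06 to -1.32) for KO AngII over WT AngII. The last was -0.81 with gates applied after thinning.

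Omd was found in few cells at a time. After thinning it was detected in 1.08% of KO AngII smooth muscle cells, 0.965% of WT AngII, 2.82% of KO saline and 10.0% of WT saline. In fibroblasts the shares were 1.38%, 3.53%, 14.4% and 22.2% in the same order. No cell of these gates held more than 6 Omd UMIs. Endothelial markers, summed over 11 genes, stood in the smooth muscle gate at 153 CPM in KO AngII, 152 CPM in WT AngII, 183 CPM in KO saline and 644 CPM in WT saline, so WT saline was also high in these. Their part in the Omd difference was not tested. In the 92 cells of WT saline that carried at least 5 endothelial marker UMIs and passed no gate, Omd was at 9 UMIs, or 21.2 CPM (9.70 to 40.3), a range that includes its smooth muscle level there. The gene Cenpp overlaps Omd on the opposite strand and was at 0.404 to 5.48 CPM in these 2 gates; no source used here says whether counting took account of the strand.

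Omd sits in a row of small leucine-rich genes, Ecm2, Aspn, Omd and Ogn, with 11653 to 15223 bases between neighbours. Ogn (mimecan) in smooth muscle was at 404 CPM in KO AngII, 372 CPM in WT AngII, 954 CPM in KO saline and 1309 CPM in WT saline. It was lower with AngII in both genotypes. In fibroblasts Ogn was at 202 CPM in KO AngII, 574 CPM in WT AngII, 869 CPM in KO saline and 1067 CPM in WT saline. Aspn (asporin) in fibroblasts was at 309 CPM in KO AngII, 903 CPM in WT AngII, 313 CPM in KO saline and 483 CPM in WT saline and so was highest in WT AngII. KO AngII over WT AngII in fibroblasts had a log2 ratio of -1.18 (-1.32 to -1.05) for Ecm2, -1.55 (-1.59 to -1.51) for Aspn and -1.51 (-1.56 to -1.46) for Ogn. All 4 genes of the row were thus at least 2-fold lower in KO AngII fibroblasts, where 5.71% of all genes were called lower. Cenpp, which spans the row on the opposite strand, was higher there, at 1.45 (0.91 to 2.02). In smooth muscle none of the 4 genes of the row was called in that comparison, with log2 ratios of -0.38, -0.74, -0.19 and 0.12 along the row.

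**Figure D2:**
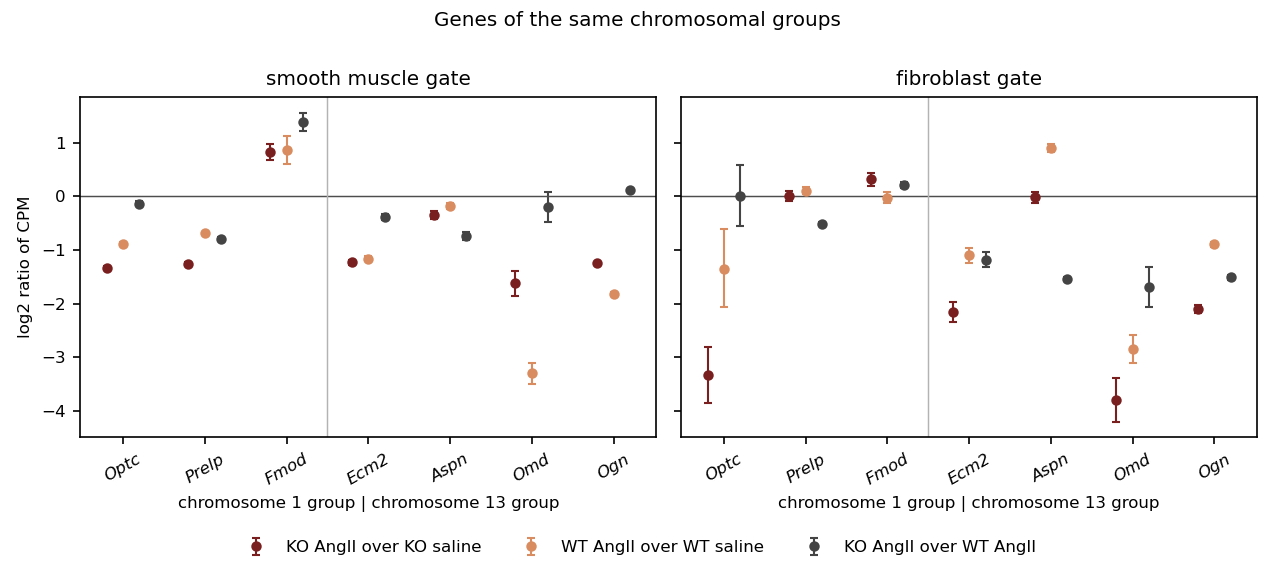
Log2 ratios of CPM with 95% counting intervals for small leucine-rich genes in their chromosomal order, Optc, Prelp and Fmod on chromosome 1 and Ecm2, Aspn, Omd and Ogn on chromosome 13, in the smooth muscle (left) and fibroblast (right) gates, for 3 comparisons. All 4 genes of the chromosome 13 row are at least 2-fold lower in KO AngII than in WT AngII fibroblasts, where 5.71% of all genes were called lower. Prelp lies near 0 with AngII in fibroblasts where Optc lies far below.

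Optc, known in mice and other vertebrates from the vitreous of the eye, lies on chromosome 1 (133897199 to 133907999, minus strand). It was a smooth muscle transcript here, and the smooth muscle gate held 96.7% of its UMIs in KO AngII, 98.4% in WT AngII, with 96.1% in KO saline and 98.8% in WT saline. Its smooth muscle level was 97.8 CPM in KO AngII, 108 CPM in WT AngII, 246 CPM in KO saline and 199 CPM in WT saline. Both AngII libraries were lower than both saline libraries. In log2 terms AngII over saline was -1.33 in KO mice (-1.38 to -1.29) and -0.89 in WT mice (-0.93 to -0.84), a 2.52-fold and a 1.85-fold difference, and the KO value was called. With gates applied after thinning the ratios were -0.85 in KO mice and -0.77 in WT mice, and neither was called. The thinned share of smooth muscle cells with Optc was 28.5% in KO AngII, 27.1% in WT AngII, with 49.8% in KO saline and 42.4% in WT saline, and before thinning 56.9%, 61.8%, 70.9% and 65.5%.

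In fibroblasts Optc was at 2.60 CPM in KO AngII, 2.57 CPM in WT AngII, 26.3 CPM in KO saline and 6.56 CPM in WT saline, from 64, 46, 65 and 27 UMIs. KO saline was the highest, and it was also the library in which Acta2 in fibroblasts was highest. Optc stood there at 10.7% of its smooth muscle CPM beside 12.02% for Acta2, and in the other libraries at 2.39 to 3.30% beside 3.49 to 5.99%. The part of smooth muscle RNA in the fibroblast values of Optc was not tested. The log2 ratio of KO saline over WT saline in fibroblasts, 2.001 (1.33 to 2.71), was -1.03 in cells of at least 5000 UMIs. KO AngII over KO saline, at -3.34 (-3.86 to -2.82), was -0.06 in those cells. In the phagocyte gate Optc was at 16.5 CPM in KO AngII, 15.4 CPM in WT AngII, 56.3 CPM in KO saline and 30.8 CPM in WT saline, or 14.3 to 22.8% of its smooth muscle CPM. In phagocytes of a single marker identity only 3, 8, 5 and 6 Optc UMIs were left. The calls of Optc in phagocytes were kept under 4 of 8 alternatives for KO AngII over KO saline and 3 of 8 for WT AngII over WT saline.

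The gene Prelp, a small leucine-rich protein of basement membranes, ends 2304 bases upstream of Optc on the same strand. For each 100 Prelp UMIs the smooth muscle gate held 81.8 Optc UMIs in KO AngII, 51.7 in WT AngII, with 86.2 in KO saline and 59.2 in WT saline. The fibroblast gate held 0.671, 0.465, 6.80 and 1.27. Prelp itself was at 387 CPM in KO AngII fibroblasts, 553 CPM in WT AngII, 386 CPM in KO saline and 515 CPM in WT saline, above its smooth muscle level in every library. The Optc to Prelp ratio was thus far lower in fibroblasts than in smooth muscle of every library. In smooth muscle Prelp was lower with AngII too, with log2 ratios of -1.26 (-1.30 to -1.22) in KO mice and -0.69 (-0.72 to -0.66) in WT mice. In fibroblasts it stood at 0.00 (-0.09 to 0.10) in KO mice and 0.10 (0.04 to 0.17) in WT mice. The gene Gm15851 overlaps Optc on the opposite strand.

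Vcan, the large hyaluronan-binding proteoglycan of the provisional matrix of injured arteries, lies on chromosome 13 (89655312 to 89742509, minus strand). In smooth muscle it was at 76.2 CPM in KO AngII, 99.1 CPM in WT AngII, 102 CPM in KO saline and 110 CPM in WT saline. AngII libraries were slightly lower, with log2 ratios of -0.43 (-0.48 to -0.37) in KO mice and -0.15 (-0.20 to -0.10) in WT mice. In fibroblasts it was at 171 CPM in KO AngII, 154 CPM in WT AngII, 103 CPM in KO saline and 59.3 CPM in WT saline. There both AngII libraries were the higher ones, with log2 ratios of 0.73 (0.55 to 0.92) in KO mice and 1.37 (1.18 to 1.57) in WT mice, of which the WT value was called. The fibroblast gate held 45.5% of all Vcan UMIs in KO AngII, 29.2% in WT AngII, with 3.28% in KO saline and 3.92% in WT saline, beside 22.1%, 19.99%, 4.20% and 11.02% of the cells. With gates applied after thinning the WT log2 ratio in fibroblasts was 0.78.

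Vcan was detected in 32.8% of thinned fibroblasts in KO AngII, 25.6% in WT AngII, with 24.3% in KO saline and 16.9% in WT saline. In the saline libraries Vcan was more frequent in cells with Pi16, a marker of adventitial fibroblasts: 26.8% with and 14.7% without it in KO saline, and 19.5% and 5.65% in WT saline. In AngII fibroblasts the shares were 35.5% with and 27.0% without Pi16 in KO AngII, and 25.7% and 25.0% in WT AngII. Crabp2, a retinoic acid binding protein, marked cells with frequent Vcan under AngII, at 53.5% with and 30.5% without it in KO AngII and 50.5% and 24.1% in WT AngII.

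Prg4, which encodes lubricin, the lubricant of joints, lies on chromosome 1 (150449412 to 150466165, minus strand) and overlaps Tpr on the opposite strand. In fibroblasts it was at 119 CPM in KO AngII, 143 CPM in WT AngII, 32.3 CPM in KO saline and 69.7 CPM in WT saline. Both AngII libraries were above both saline libraries. On the log2 scale AngII over saline was 1.87 in KO mice (1.55 to 2.21) and 1.04 in WT mice (0.86 to 1.22), and that of KO saline over WT saline was -1.11 (-1.49 to -0.75). The WT value was 0.85 with gates applied after thinning and 0.59 in cells of at least 5000 UMIs. In smooth muscle Prg4 was at 4.61 CPM in KO AngII, 2.38 CPM in WT AngII, 0.568 CPM in KO saline and 0.736 CPM in WT saline, or 1.06 to 3.89% of its fibroblast level beside the Dcn and Lum shares of 1.22 to 4.92%. Their part in the smooth muscle difference was not tested.

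Prg4 was concentrated in few fibroblasts. The 5% of fibroblasts with the most Prg4 held 60.6% of its UMIs in KO AngII, 67.0% in WT AngII, with 87.5% in KO saline and 70.7% in WT saline, and the highest cells held 242, 104, 12 and 24 UMIs. The thinned share of fibroblasts with Prg4 was 17.0% in KO AngII, 16.3% in WT AngII, with 5.41% in KO saline and 11.4% in WT saline. Under AngII it was more frequent in fibroblasts with Timp1, a metalloproteinase inhibitor: 18.5% with and 6.81% without Timp1 in KO AngII, and 19.2% and 9.45% in WT AngII. In WT saline fibroblasts the shares were 11.6% and 11.3%. Of the cells that carried endothelial markers and passed no gate, those of WT saline held 29 Prg4 UMIs in 7.61% of 92 cells.

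Gpc3, a heparan sulfate proteoglycan anchored at the cell surface that restrains growth in development, lies on chromosome X (52272426 to 52613950, minus strand). In fibroblasts it was at 22.8 CPM in KO AngII, 31.0 CPM in WT AngII, 174 CPM in KO saline and 73.1 CPM in WT saline. Both AngII libraries were low, and KO saline was the highest. The log2 ratio of AngII over saline was -2.94 in KO mice (-3.12 to -2.75) and -1.24 in WT mice (-1.45 to -1.03). The thinned share of fibroblasts with Gpc3 was 5.85% in KO AngII, 8.42% in WT AngII, with 27.6% in KO saline and 16.6% in WT saline. The WT ratio was -0.97 with gates applied after thinning and -0.81 in cells of at least 5000 UMIs, while the KO ratio stayed between -2.94 and -2.42 in every alternative.

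In smooth muscle Gpc3 was at 3.47 CPM in KO AngII, 2.97 CPM in WT AngII, 25.3 CPM in KO saline and 12.6 CPM in WT saline. Both AngII libraries were again low and KO saline the highest. The log2 ratio of AngII over saline was -2.87 in KO mice (-3.08 to -2.66) and -2.09 in WT mice (-2.33 to -1.86). The ratio of KO saline over WT saline was 1.25 (1.04 to 1.47) in fibroblasts and 1.003 (0.87 to 1.13) in smooth muscle, and the smooth muscle value was 0.42 in cells of a single marker identity and 0.39 in cells of at least 5000 UMIs. In saline fibroblasts Gpc3 was more frequent with Pi16, at 31.7% with and 11.8% without it in KO saline and 18.4% and 8.87% in WT saline. In AngII fibroblasts the shares were 6.13% and 5.24% in KO AngII and 8.25% and 9.12% in WT AngII.

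Esm1, a secreted dermatan sulfate proteoglycan known as an endothelial product, lies on chromosome 13 (113209659 to 113218098, plus strand), where it overlaps Gzmk, which was not analysed here, on the opposite strand. In smooth muscle it was at 18.2 CPM in KO AngII (1088 UMIs), 15.2 CPM in WT AngII (982 UMIs), 1.80 CPM in KO saline (127 UMIs) and 0.170 CPM in WT saline (9 UMIs). It was almost absent from WT saline and highest in the AngII libraries. The log2 ratio of AngII over saline was 3.33 in KO mice (3.07 to 3.61) and 6.48 in WT mice (5.55 to 7.61), the WT value resting on 9 UMIs in WT saline. With gates applied after thinning the KO value was 1.23. Fibroblast markers, all 13 detected, also summed higher in the smooth muscle gate with AngII, at 7014 CPM in KO AngII, 7508 CPM in WT AngII, 3705 CPM in KO saline and 3633 CPM in WT saline. In smooth muscle cells of a single marker identity the Esm1 ratios were 3.84 in KO mice and 6.19 in WT mice. The part of fibroblast RNA in the smooth muscle values of Esm1 was not tested. In fibroblasts Esm1 was at 117 CPM in KO AngII, 34.5 CPM in WT AngII, 17.0 CPM in KO saline and 4.37 CPM in WT saline. KO AngII fibroblasts held the highest level of any gate. The log2 ratio of AngII over saline was 2.79 in KO mice (2.35 to 3.26) and 2.98 in WT mice (2.31 to 3.74), and that of KO AngII over WT AngII was 1.77 (1.64 to 1.89).

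Single cells carried much of Esm1 in some libraries. One cell held 38 of the 42 Esm1 UMIs of KO saline fibroblasts, and without it the level was 1.62 CPM. KO saline over WT saline in fibroblasts, a log2 ratio of 1.96 (1.13 to 2.84), then became -0.85 when the highest cell of both libraries was left out, and that of KO AngII over KO saline became 6.13. One cell held 141 of 617 UMIs in WT AngII, and without the highest cells KO AngII stood above WT AngII with a log2 ratio of 2.10. The KO AngII signal was broader: 24.5% of KO AngII fibroblasts had an Esm1 UMI (22.6 to 26.5), against 5.95% (4.87 to 7.18) in WT AngII, with 0.593% in KO saline and 0.686% in WT saline. Median UMIs per fibroblast were 11778.5 in KO AngII, 9150 in WT AngII, with 3874.5 in KO saline and 3608 in WT saline. After thinning the shares were 13.4% in KO AngII, 3.06% in WT AngII, with 0.601% in KO saline and 0.2999% in WT saline. In phagocytes, which are not known to make Esm1, 2.32% of KO AngII and 1.56% of WT AngII cells had a UMI, and both saline libraries had 0 UMIs, where 3 UMIs would be 6.25 CPM in KO saline and 1.97 CPM in WT saline.

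Few endothelial cells were captured. Cells with at least 5 endothelial marker UMIs that passed no gate numbered 36 in KO AngII, 16 in WT AngII, with 44 in KO saline and 92 in WT saline, with 5, 0, 1 and 0 Esm1 UMIs. These counts gave 13.5 CPM in KO AngII (4.396 to 31.6), where 8.33% of the cells had a UMI, and 4.41 CPM in KO saline (0.112 to 24.6). The 0 UMIs allowed up to 34.8 CPM in WT AngII and 8.70 CPM in WT saline, by the Poisson interval. These limits lie above the smooth muscle levels of the same libraries. A level in endothelial cells like that of smooth muscle could thus have gone undetected in WT AngII and WT saline. The part of endothelial cells in the Esm1 values was not tested. Within thinned AngII smooth muscle cells, Esm1 was more frequent in cells with Timp1, at 5.10% with and 0.913% without it in KO AngII and 3.95% and 1.38% in WT AngII. The same held for Vcam1, an adhesion molecule, at 5.63% and 1.74% in KO AngII and 6.04% and 1.38% in WT AngII. It held as well for Spp1, osteopontin, at 6.51% and 1.59% in KO AngII and 4.86% and 1.54% in WT AngII. In AngII smooth muscle cells with Optc the share was 0.928% in KO AngII and 1.44% in WT AngII, against 2.69% and 2.11% without Optc.

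**Figure D3:**
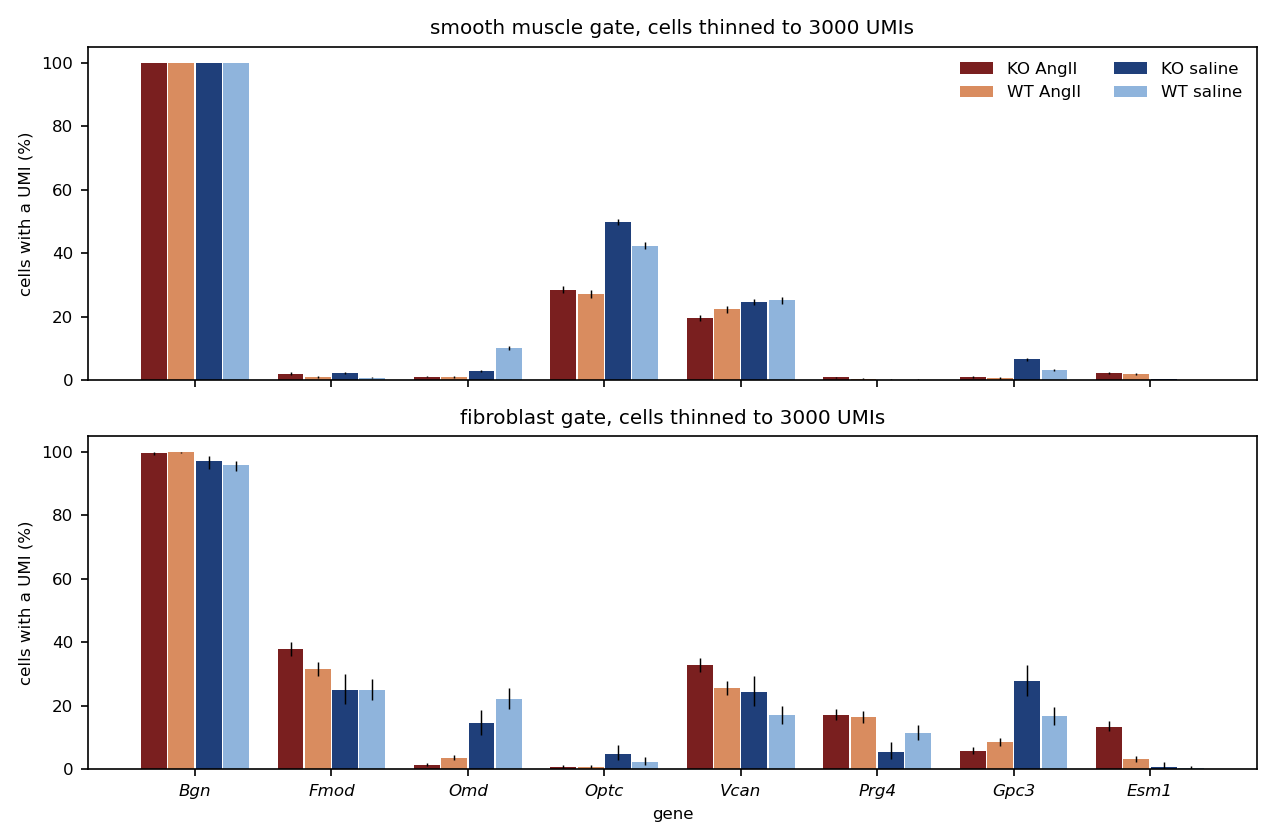
Share of cells (percent, with 95% Clopper-Pearson bars) with at least 1 UMI of each gene after every cell was thinned to 3000 UMIs, in the smooth muscle (top) and fibroblast (bottom) gates of the 4 libraries. Esm1 reaches 13.4% of KO AngII fibroblasts and 3.06% of WT AngII fibroblasts, and Omd and Gpc3 are more frequent in the saline libraries.

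The 8 genes in 3 gates gave 24 values for each comparison. Because the 8 genes were chosen with earlier results known, the shares over all genes beside their counts are a description. The comparisons below use each library more than once, apart from the AngII contrast of KO mice and that of WT mice, which share none. In KO AngII against KO saline, 19 of the 24 had at least 50 UMIs, 4 were called higher and 7 lower. The higher ones were Prg4 and Esm1 in smooth muscle and in fibroblasts, where 6.59% and 7.67% of all genes were called higher (7.12% in phagocytes). The lower ones were Omd, Optc and Gpc3 in both of these gates and Optc in phagocytes, where 6.38%, 14.4% and 5.35% of all genes were called lower in smooth muscle, fibroblasts and phagocytes. In WT AngII against WT saline, 7 of 19 were higher: Bgn, Prg4 and Esm1 in smooth muscle (7.07% of all genes), Vcan, Prg4 and Esm1 in fibroblasts (7.56%) and Bgn in phagocytes (6.39%). The 6 lower ones were Omd and Gpc3 in smooth muscle (5.44%), Omd, Optc and Gpc3 in fibroblasts (8.16%) and Optc in phagocytes (4.81%).

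Fewer values were called between genotypes than between treatments, and fewer of all genes were called too, in each gate. In KO AngII against WT AngII, 2 of 19 were higher, Fmod in smooth muscle (2.15% of all genes) and Esm1 in fibroblasts (1.98%), and Omd in fibroblasts was lower (5.71%). None was called in phagocytes, where 0.721% of all genes were higher and 2.3% lower. In KO saline against WT saline, 6 of 18 were higher: Fmod, Gpc3 and Esm1 in smooth muscle (2.34% of all genes) and Optc, Gpc3 and Esm1 in fibroblasts (3.09%). The lower ones were Omd in smooth muscle (2.19%) and Prg4 in fibroblasts (3.09%). None was called in phagocytes, where 2.08% of all genes were higher and 3.4% lower. Of the 6 higher ones, 2 were left with stricter gates and 2 in cells of at least 5000 UMIs, Esm1 in smooth muscle and Gpc3 in fibroblasts each time. The median log2 ratio of all genes with at least 50 UMIs lay between -0.20 and 0.02, and the median of the 8 genes in smooth muscle was 0.04 for KO AngII over KO saline and 0.36 for WT AngII over WT saline. In fibroblasts the order was the other way, at 0.48 for KO AngII over KO saline and 0.33 for WT AngII over WT saline.

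**Figure D4:**
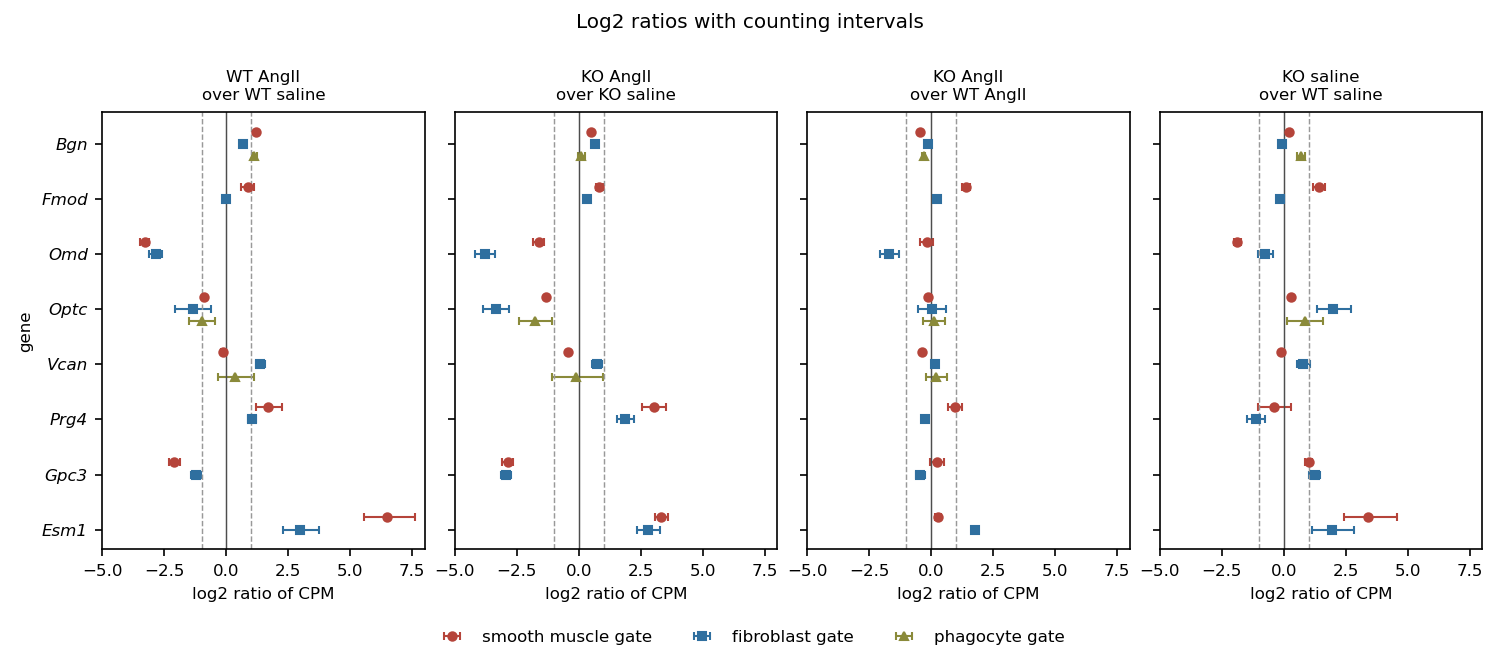
Log2 ratios of CPM with exact 95% counting intervals for the 8 genes in 4 comparisons, by gate (symbols as in the legend), for values with at least 50 UMIs over both libraries; dashed lines mark 2-fold. Esm1 and Prg4 lie to the right and Omd and Gpc3 to the left in both AngII comparisons, and most values lie within 2-fold in KO AngII over WT AngII.

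Other genes of the proteoglycan system were followed in 6 lists holding 124 symbols, of which 115 were in the files. Among genes of hyaluronan-binding proteoglycans and of hyaluronan synthesis, binding and breakdown, other than Vcan, 5 of 14 measured in smooth muscle were higher and 0 lower in KO AngII than in KO saline, and 4 were higher and 2 lower in WT AngII than in WT saline. Of all genes in smooth muscle, 6.59% were called higher and 6.38% lower in KO mice, and 7.07% and 5.44% in WT mice. In fibroblasts 7 of 13 were higher and 2 lower in KO mice, and 5 of 12 were higher and 1 lower in WT mice. The list median in fibroblasts was 1.24 in KO mice and 0.85 in WT mice, beside -0.20 and -0.12 over all genes. Of all genes there, 7.67% and 7.56% were called higher and 14.4% and 8.16% lower. Those higher in both genotypes were Acan, Cd44, a hyaluronan receptor, Hmmr, and Cemip, which takes part in hyaluronan breakdown. Phagocyte markers in the fibroblast gate summed to 225 CPM in KO AngII, 427 CPM in WT AngII, 48.1 CPM in KO saline and 285 CPM in WT saline, with 11 of 13 genes detected in KO saline, where Adgre1 and Fcgr1 were at 0, and all 13 elsewhere. Chondrocyte markers there summed to 211 CPM in KO AngII, 337 CPM in WT AngII, 258 CPM in KO saline and 77.5 CPM in WT saline, with 9, 9, 7 and 5 of 10 detected. The part of either in the list's values was not tested. Acan (aggrecan), the large cartilage proteoglycan, was at 121 CPM in KO AngII smooth muscle, 103 CPM in WT AngII, 20.9 CPM in KO saline and 27.2 CPM in WT saline. Both AngII libraries stood far above both saline libraries. Chondrocyte markers, a list that holds Acan too, summed in the smooth muscle gate to 240 CPM in KO AngII, 202 CPM in WT AngII, 73.3 CPM in KO saline and 63.8 CPM in WT saline, with 9, 9, 9 and 7 of its 10 genes detected, Col2a1 at 0 in WT saline. Its part in the Acan difference was not tested. Has1, a hyaluronan synthase, was at 102 CPM in KO AngII fibroblasts, 39.6 CPM in WT AngII, 80.8 CPM in KO saline and 22.1 CPM in WT saline. It was higher in KO than in WT fibroblasts at both treatments, with log2 ratios of 1.36 (1.24 to 1.48) under AngII and 1.87 (1.505 to 2.24) under saline.

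Among the other small leucine-rich genes, none of 8 in fibroblasts was higher in KO AngII than in WT AngII and 5 were lower: Aspn, Ecm2, Epyc, Ogn and Chad. The list median was -1.19, beside -0.08 over all genes, of which 1.98% were called higher and 5.71% lower. Dcn, a small leucine-rich gene that the fibroblast gate itself uses, was at 3300 CPM in KO AngII fibroblasts, 7072 CPM in WT AngII, 11071 CPM in KO saline and 11323 CPM in WT saline; its part in these differences was not tested. In smooth muscle 1 of 9 was higher, Chad, with 39 UMIs in KO AngII and 18 in WT AngII, and 0 were lower. Of all genes there, 2.15% were called higher and 1.43% lower. With AngII, 0 of 8 in fibroblasts were higher and 3 lower in KO mice, and 2 were higher and 1 lower in WT mice, Ecm2 being among the lower ones in both. Of all genes there, 7.67% were called higher and 14.4% lower in KO mice, and 7.56% and 8.16% in WT mice. In smooth muscle AngII gave 0 of 9 higher and 3 lower in KO mice (Ecm2, Prelp and Ogn). In WT mice 3 of 9 were higher (Lum, Tsku and Podn) and 3 lower (Ecm2, Ogn and Chad). The shares over all genes in smooth muscle were 6.59% higher and 6.38% lower in KO mice, and 7.07% and 5.44% in WT mice. The part of fibroblast RNA in these values was not tested. Of 47 genes of glycosaminoglycan synthesis in the files, 41 were measured in smooth muscle, and 2 were higher and 1 lower in KO AngII than in KO saline, where 6.59% and 6.38% of all genes were called. In WT mice 5 were higher and 1 lower, where 7.07% and 5.44% of all genes were called. Their median was 0.04 in KO mice and 0.39 in WT mice, beside -0.17 and -0.11 over all genes. Among 11 heparan sulfate genes other than Gpc3 measured in fibroblasts, 2 were higher and 3 lower with AngII in KO mice, where 7.67% and 14.4% of all genes were called, against 3 and 1 in WT mice, where 7.56% and 8.16% were. The list medians were -0.43 in KO mice and 0.52 in WT mice. In smooth muscle the counts were 0 and 1 in KO mice and 3 and 2 in WT mice, with medians of 0.46 and 0.50. The shares over all genes in smooth muscle were 6.59% and 6.38% in KO mice and 7.07% and 5.44% in WT mice. Of the remaining proteoglycan genes 4 were measured in smooth muscle, where 2 were higher with AngII in both genotypes, Srgn and Cd74, both abundant in immune cells. There 0 were lower in KO mice and 1, Spock2, in WT mice. In fibroblasts 0 were higher and Spock2 was lower in both genotypes. The shares over all genes in both gates were those given above. Phagocyte markers, all 13 detected, summed in the smooth muscle gate to 205 CPM in KO AngII, 279 CPM in WT AngII, 30.02 CPM in KO saline and 136 CPM in WT saline, and their part in the Srgn and Cd74 values was not tested. Tgfbr3 (betaglycan), a membrane proteoglycan that binds transforming growth factor beta, was called lower with AngII in both genotypes and both of these gates. In fibroblasts it was at 27.7 CPM in KO AngII, 48.4 CPM in WT AngII, 96.6 CPM in KO saline and 237 CPM in WT saline. Of 10 genes of proteases that cleave proteoglycans, 8 were measured in fibroblasts, and 0 were higher and 2 lower in KO AngII than in KO saline, against 2 and 1 in WT mice, beside the same shares over all genes in fibroblasts as above. The list medians were -0.06 in KO mice and 0.44 in WT mice. In smooth muscle the counts were 0 and 1 in KO mice and 1 and 1 in WT mice, beside the shares over all genes in smooth muscle given above. The lower gene in smooth muscle was Adamts15 in both genotypes. In fibroblasts Adamts5, an aggrecanase, was lower with AngII in both genotypes, at 71.4 CPM in KO AngII, 126 CPM in WT AngII, 242 CPM in KO saline and 365 CPM in WT saline.

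Across the 12 gate-by-library sums, the genes most like each member among 13523 genes were found by Pearson correlation of log2(CPM + 1). The points share libraries, depth and gates, and the values are a description. For Optc these were Scube3 (r = 0.996), Kcnab1 (0.995) and E030013I19Rik (0.991). For Prg4 they were Serpina3n (0.9804), Has2 (0.979), a second hyaluronan synthase, and Bmper (0.978). For Fmod they were Il33 (0.987), Pcolce (0.984) and Bace2 (0.983), and for Bgn they were Fam198b (0.984), Tram2 (0.982) and Sepw1 (0.976). Vcan was followed by Eva1b (0.986), Il1r1 (0.976) and Obsl1 (0.976), Omd by Zfyve21 (0.978), Oplah (0.968) and Zadh2 (0.967), Gpc3 by Cbx3 (0.9797), Col23a1 (0.966) and 6030408B16Rik (0.958), and Esm1 by Mlec (0.9797), Ostc (0.974) and Ppa1 (0.969). Among the members themselves the most alike pair was Bgn and Vcan (0.931), followed by Fmod and Prg4 (0.904) and by Omd and Gpc3 (0.846), and the least alike was Optc and Prg4 (-0.81).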

How the data were processed

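The deposited tables hold raw UMI counts, whole numbers with no normalization, 1 table per library with genes in rows and cells in columns. Cell Ranger and mm10 are named per the submitters' processing notes, with no version. The members, gene lists, gates and alternatives were chosen with earlier results of these data known. Counts were summed per gate and library (Python 3.11.15, numpy 2.4.6, scipy 1.17.1). In ratios, 3 UMIs stood in for 0. Thinning to 3000 UMIs, drawn at random, left out shallower cells: in the smooth muscle gate 0 of both AngII libraries, 1190 of KO saline and 227 of WT saline, and in the fibroblast gate 0, 173 and 354. Doublets were not called, and 18 to 85 cells per library were in both the smooth muscle and the phagocyte gate. Single-identity cells had at most 1 UMI of the other gates' markers. The stricter gates need 6 Myh11 UMIs or 20 of the other markers. TMM scaling used edgeR 4.0.16 in R 4.3.3. All 8 members are named. The rule for the lists named 2 genes per direction, gate and comparison with at least 100 UMIs. Chromosomal neighbours, co-detection partners and a few list genes that the text names (Adamts5, Epyc, Ecm2, Dcn) were chosen after their values were seen. Positions are from GENCODE M21 (GRCm38). The ratio code was tested on simulated counts.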

Additional observations from a re-analysis of the deposited data

Results flagged for a closer look

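In 4 cases the KO over WT difference had opposite signs under AngII and under saline, with both counting intervals on their own side of 0. With 1 library per group the difference between treatments was not tested. Bgn in smooth muscle had a log2 ratio of KO over WT of -0.47 under AngII and 0.23 under saline. Bgn in phagocytes had -0.31 under AngII and 0.72 under saline, but 0.18 under AngII in phagocytes of a single marker identity, and -0.25 under saline in cells of at least 5000 UMIs. Optc in smooth muscle had -0.14 under AngII and 0.31 under saline, but 0.23 under AngII with gates applied after thinning. Gpc3 in fibroblasts had -0.44 under AngII and 1.25 under saline.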

How the results depend on the processing

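No paired analysis was possible because each group is 1 library. Of 35 called values, 17 stayed called and 33 kept their sign under all alternative choices of cells, both alternative scalings and without the highest cell. A call needs at least 50 UMIs as well as 2-fold, so some calls were lost to low counts alone. Prg4 in smooth muscle, KO AngII over KO saline, lost its call with thinned cells although its lowest log2 ratio was 1.84. The exceptions in sign were both KO saline over WT saline in fibroblasts: Optc at -1.03 in cells of at least 5000 UMIs and Esm1 at -0.85 without the highest cell of each library, both settings chosen after seeing the data. Among counts of called values, WT AngII against WT saline went to 4 higher with single-identity gates, and to 3 higher and 3 lower with thinned cells, in place of 7 and 6. KO AngII against KO saline had 7 higher at 1.5-fold, in place of 4, and 11 lower with no minimum of UMIs, in place of 7. Those 11 include Prg4 in phagocytes, which was not an observed decrease. Prg4 was absent from the KO saline phagocytes, while those of KO AngII held 10 UMIs of it. Its log2 ratio of -1.60 is only a bound, set by the 3 UMIs that stood in for 0 in the smaller gate. KO AngII against WT AngII had 1 higher and 0 lower with thinned cells and 1 higher with a limit on free RNA, in place of 2 and 1. KO saline against WT saline had 2 higher with stricter gates and 2 in cells of at least 5000 UMIs, in place of 6. The cause of these differences was not tested. With gates applied after thinning, the log2 ratio of Esm1 in smooth muscle was 1.23 in KO AngII over KO saline and -0.48 in KO AngII over WT AngII, against 3.33 and 0.26. Fmod in smooth muscle was then at -0.87 in KO AngII over KO saline, against 0.83. TMM scaling moved ratios by at most 0.31, and 8 of 8 counts stayed within 1.5 times under it. Phagocytes of KO saline, at 83 cells, limit what could be seen there.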
